A study of Mus musculus with 8 samples.

Results

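Neuropeptide genes were followed by single-nucleus RNA sequencing in perilesional forebrain of male Swiss Webster mice aged 10 weeks. The set held 10 of the 54232 genes in the deposited files, taken by their symbols: Sst, Vip, Npy, Cck, Tac1, Penk, Pdyn, Crh, Cort and Nts. The labels give 4 groups of 2 libraries: control, BCAS (not spelled out in the labels; the title of the study speaks of cerebral hypoperfusion), TBI (traumatic brain injury) and BCAS+TBI. No drug or altered allele is named for any group, and the time between surgery and collection, a sham operation in the controls and the number of animals behind a library are not given in the sources used here. The labels call the libraries of a group biological replicates, so p-values measure the spread between these libraries.

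Neuropeptides are cut from larger precursor proteins by convertases, stored in dense-core vesicles and released mostly during intense firing, after which they act on G protein-coupled receptors at a distance from the synapse. In the forebrain their genes are among the sharpest markers of neuron type. Somatostatin and vasoactive intestinal peptide define families of inhibitory interneurons, whereas tachykinin, dynorphin and enkephalin precursors divide the projection neurons of the striatum.

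Sst and Cort are the most closely related genes of the set, and the end of their coding sequences is shown because it encodes the ring shared by somatostatin and cortistatin. Capitals mark the bases that are the same in both, 31 of 42 (73.8%). Both lie in exonic coding sequence of GRCm38 (GENCODE vM21), Sst at chr16:23889732-23889773 and Cort at chr4:149125270-149125311, both on the minus strand.
Sst: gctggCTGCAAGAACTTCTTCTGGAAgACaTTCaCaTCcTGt
Cort: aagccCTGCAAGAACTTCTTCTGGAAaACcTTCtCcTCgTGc

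The Sst promoter is known for a cyclic AMP response element, and a 30-base window around it is shown. The window lies at chr16:23890874-23890903 on the minus strand (RefSeq, GRCm38.p6), with the element, TGACGTCA, in capitals, 40 bases before the RefSeq start. The GENCODE vM21 span of Sst reaches further, to 23890958, so the window lies before the start in RefSeq and inside the gene in GENCODE.
Sst promoter: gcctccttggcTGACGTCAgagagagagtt
Of the 10 genes, 8 were in the promoter table, with 9 windows in all, and only the 250 bases before each start were searched. TGACGTCA stood in 1 of the 8 genes, against 1.55% of all 32851 windows. The shorter motif TGACG, searched on both strands and contained in the longer one, stood in 6 of the 8 and in 17.8% of all windows. Penk and Crh had no entry. These matches describe letters only, with the 8 counted by gene and the background by window. No link between the motifs and any difference between libraries was tested.

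All 10 genes are short, with spans of 1386 bp (Sst) to 13280 bp (Pdyn) in GRCm38. Penk (chromosome 4, 4133531 to 4138819, minus strand) was the 1 gene whose span overlapped another annotated gene, A830012C17Rik on the opposite strand, over 499 bases. How the counting used strand is not given in the sources used here.

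The 8 libraries held 28118725 to 56135192 UMIs (unique molecular identifiers, each counting 1 captured RNA molecule), and 45560 nuclei remained after filtering, 5049 to 7157 per library. By total UMIs the libraries formed 2 sets with 1 library of each group: set 1 (control 1, BCAS 1, TBI 1 and BCAS+TBI 2) reached at most 33363564 UMIs, and set 2 (control 2, BCAS 2, TBI 2 and BCAS+TBI 1) had at least 42651388. Set 1 also had the higher mitochondrial share, 1.20% to 2.77% against 0.511% to 1.04%. Nuclei were placed in 14 neuron types and 4 glial or vascular types by marker genes that included no neuropeptide gene, and each gate had 1 to 6 of its own markers among its 10 leading genes. The neuron gates held 11532 of the 45560 nuclei and the glial and vascular gates 7898. Pairs of libraries shared 5 to 20 cell barcodes.

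Sst and Vip were highest in the interneuron types named for them, although the gates had not used either gene, whereas Npy was shared by 2 types, Cck was broad and Cort had no type above the others beyond its spread. Levels are UMIs of the gene per 1000000 UMIs of the class in a library (CPM), as mean ± SD over 8 libraries. Sst reached 1027 ± 619 CPM in Sst-type nuclei, gated by Grin3a, Elfn1, Crhbp and Pdzrn4, and 80.04 ± 52.8 CPM in Pvalb-type nuclei, the next highest neuron type, and the order held in 8 of 8 libraries. In CPM the Pvalb-type level of Sst lay near that of the glial and endothelial gates, at 61.0 ± 27.9 CPM together, which are shallower (median 1702 against 6659 UMIs). Per nucleus it was higher, at 513 ± 276 UMIs of Sst per 1000 Pvalb-type nuclei against 162 ± 59.1 in glia, in 8 of 8 libraries. Vip, whose product dilates vessels and marks interneurons that inhibit other interneurons, reached 2266 ± 1442 CPM in Vip-type nuclei and 297 ± 260 CPM in Lamp5-type nuclei, again in that order in 8 of 8. Vip was itself among the 10 leading genes of the Lamp5-type gate, which held 90 of the 521 nuclei with at least 5 Vip UMIs, against 154 in the Vip-type gate. Of all Vip UMIs, 24.1% lay in the Vip-type gate and 24.2% in nuclei of no gate. Npy, an inhibitory peptide of interneurons, stood at 219 ± 139 CPM in Sst-type and 204 ± 115 CPM in Lamp5-type nuclei. The Sst-type level of Npy was the higher in 4 of 8 libraries, so those neighbours did not differ beyond their spread. Vip-type nuclei followed for Npy at 52.6 ± 13.98 CPM, below Lamp5-type in 8 of 8 libraries.

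Crh, the gene of corticotropin-releasing hormone, was highest in Vip-type nuclei at 76.2 ± 63.9 CPM and stood at 10.9 ± 8.02 CPM in Lamp5-type nuclei, lower in 8 of 8 libraries. Cort, which encodes cortistatin, was rare: its 3 highest types were Pvalb-type (9.89 ± 4.98 CPM), Vip-type (7.23 ± 6.50 CPM) and Sst-type (5.66 ± 3.59 CPM). The Pvalb-type level of Cort exceeded the Vip-type level in 4 of 8 libraries, so that order was within the spread. Of the 564 nuclei with a Cort UMI, 93.4% had 1 UMI, and no nucleus had more than 4.

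Cck, the gene of cholecystokinin, was the broadest of the set. Its Vip-type level of 176 ± 114 CPM was followed by 119 ± 77.3 CPM in CA pyramidal neurons of the hippocampus, 106 ± 56.4 CPM in upper-layer and 87.1 ± 46.7 CPM in mid-layer cortical neurons, and neighbours in that order were higher in 5 or 6 of 8 libraries, within their spread. Barcodes of 500 to 1000 UMIs had 131 ± 65.9 CPM of Cck, within that range, and the lowest level was 17.3 CPM in Drd2-type nuclei. At least 1 Cck UMI was present in 20.8% of all nuclei, yet the 219 nuclei with 5 or more held 11.5% of its UMIs, against 61.3% for Sst (816 nuclei) and 79.0% for Vip (521 nuclei).

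**Figure D1:**
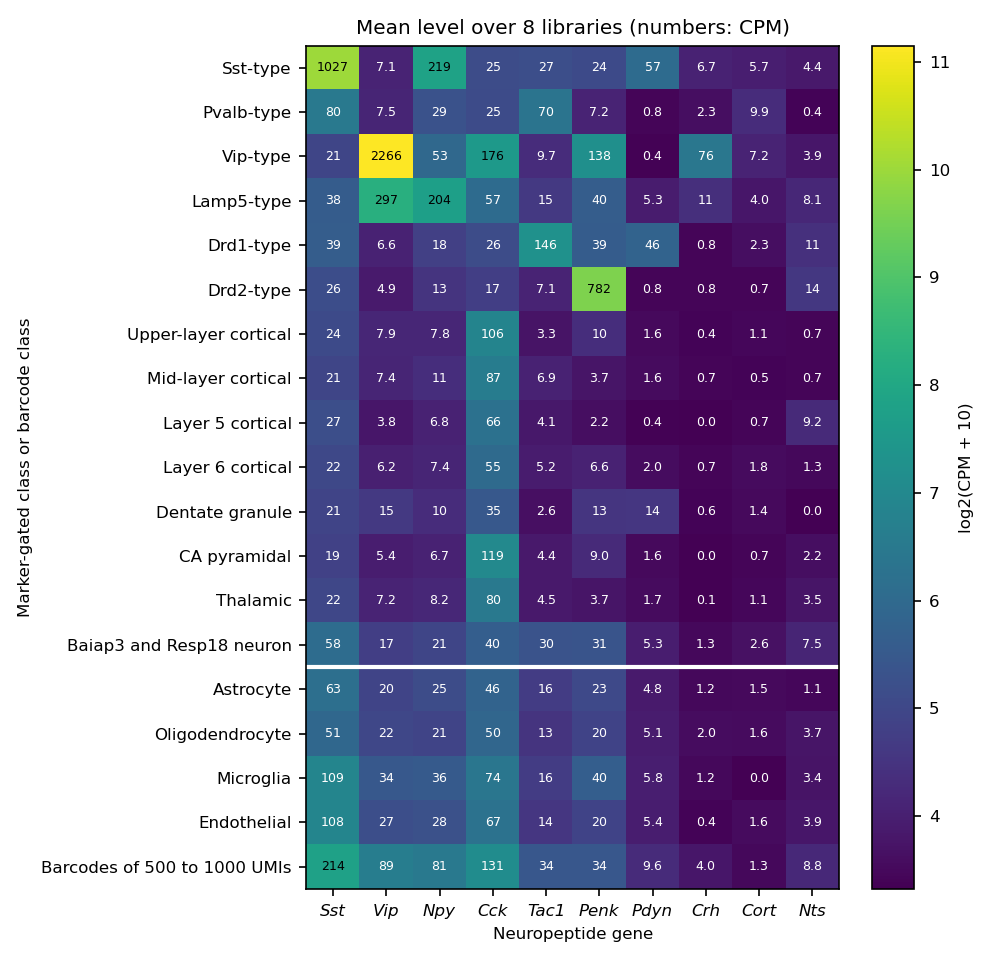
Mean level of each neuropeptide gene (columns) in 14 neuron gates, 4 glial and vascular gates and barcodes of 500 to 1000 UMIs (rows). Colour is log2(CPM + 10), and the printed numbers are mean CPM over 8 libraries. Sst, Vip and Penk each peak in 1 gate, at 1027, 2266 and 782 CPM, whereas Cck is spread over the cortical, hippocampal and thalamic gates and the glial background.

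The striatal peptides split by dopamine receptor type. Penk, the enkephalin precursor, reached 782 ± 514 CPM in Drd2-type nuclei and 138 ± 131 CPM in Vip-type nuclei, lower in 8 of 8 libraries. Tac1, the precursor of substance P, was highest in Drd1-type nuclei at 146 ± 60.4 CPM, above Pvalb-type nuclei (69.9 ± 38.9 CPM) in 8 of 8 libraries. Pdyn, the dynorphin precursor, had 57.2 ± 15.8 CPM in Sst-type and 46.2 ± 12.7 CPM in Drd1-type nuclei, in that order in 6 of 8 libraries, and 13.6 ± 8.56 CPM in dentate granule cells, below Drd1-type in 8 of 8. Nts, which encodes neurotensin, had no sharp peak, with 14.4 ± 12.1 CPM in Drd2-type, 11.4 ± 25.3 CPM in Drd1-type and 9.19 ± 10.6 CPM in layer 5 cortical nuclei, all within their spread.

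Shares of nuclei with a UMI gave the same picture when every nucleus was thinned to 1000 UMIs. Sst was then detected in 33.9% ± 12.6 of Sst-type nuclei (SD, n = 8; 57.3% unthinned) and in 6.72% ± 3.10 of astrocytes (13.2% unthinned), which should lack it, at median depths of 6775.5 and 2042 UMIs. Vip was detected in 55.2% ± 5.92 of Vip-type nuclei (67.5% unthinned, median 5832 UMIs) and 2.26% ± 1.28 of astrocytes. Penk was detected in 53.3% ± 16.4 of Drd2-type nuclei (91.8% unthinned, median 6484 UMIs) and 1.44% ± 0.904 of astrocytes, and Tac1 in 21.2% ± 6.97 of Drd1-type nuclei (57.6% unthinned, median 6541 UMIs) and 1.37% ± 1.14 of astrocytes. Cck was detected in 13.5% ± 6.48 of CA pyramidal and 11.8% ± 5.83 of upper-layer nuclei (48.8% and 49.2% unthinned, medians of 7918 and 7962 UMIs) and in 4.88% ± 2.72 of astrocytes. Thinning left out 160 astrocytes, 4 layer 6 nuclei and 1 Drd2-type nucleus under 1000 UMIs. Layer 6 cortical nuclei stood below astrocytes for Sst, at 3.15% ± 1.80, so their share was read as background.

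Several neuropeptide genes shared nuclei. Of the 548 Sst-type nuclei with at least 5 Sst UMIs, 235 (42.9%) had at least 2 Npy UMIs, against 4.69% of the other 1194 Sst-type nuclei, and the share was higher in 8 of 8 libraries. Pdyn followed Sst in the same way, at 16.97% against 3.18%, higher in 8 of 8 libraries. Cort was found with Sst in 1.46% against 0.0838%, higher in 5 of 8 libraries and resting on 8 nuclei and 1 nucleus. Median depths were 7385.5 UMIs in the Sst-rich nuclei and 6541.5 UMIs in the others.

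In the Vip-type gate, Crh went with Vip and Cck did not. Of 154 nuclei with at least 5 Vip UMIs, 14.3% had at least 2 Crh UMIs, against 0.775% of the other 129, higher in 8 of 8 libraries. Penk was found in 18.8% against 6.20%, higher in 7 of 8. Cck ran the other way, with 7.14% of the Vip-rich nuclei against 26.4% of the others, and was higher in the Vip-rich nuclei of 1 library. The Vip-rich nuclei were the shallower ones, with a median of 4964 UMIs against 7346, and the part of depth in the Cck difference was not tested. In Lamp5-type nuclei, 2.86% of 105 nuclei rich in Npy had at least 2 Vip UMIs, against 11.1% of the other 946. In Drd1-type nuclei, 9 of 36 Tac1-rich nuclei had at least 2 Pdyn UMIs, against 9.94% of the other 322. That share was higher in the Tac1-rich nuclei of only 4 of 7 libraries and ran from 0% to 100% between them.

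**Figure D2:**
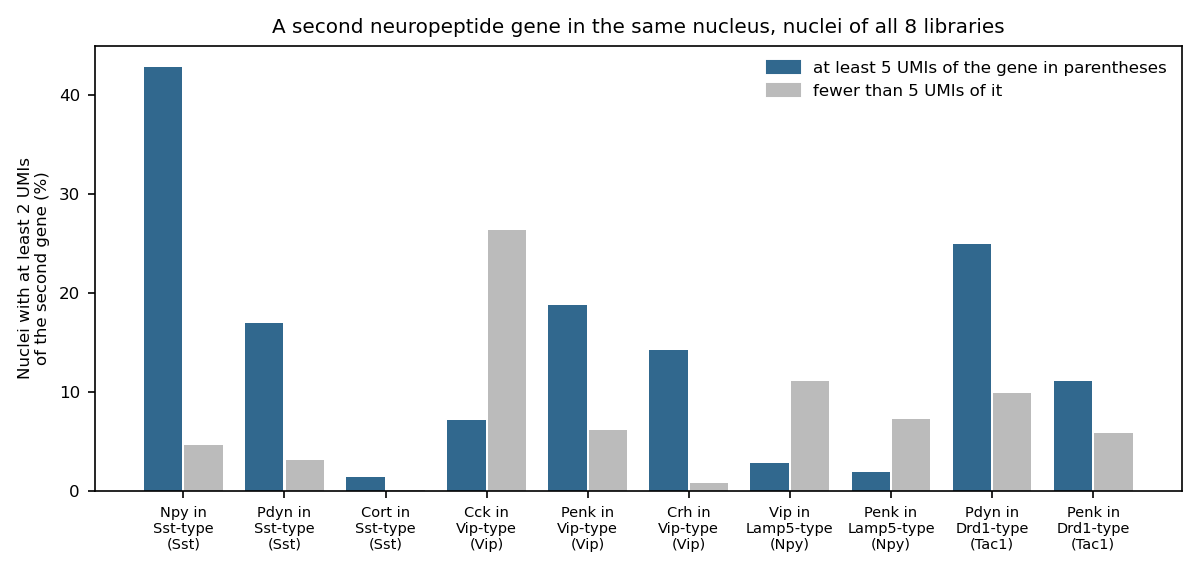
Share of nuclei with at least 2 UMIs of a second neuropeptide gene (vertical axis, percent of nuclei pooled over 8 libraries) among nuclei of a gate with at least 5 UMIs of the first gene, in parentheses (blue), and among the rest of that gate (grey). Npy and Pdyn are the more frequent in Sst-rich nuclei (42.9% and 16.97%), and Cck is the less frequent in Vip-rich nuclei (7.14% against 26.4%).

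Peptide RNA was also counted in glial and endothelial gates, and whether those nuclei made any of it was not tested. In 7898 nuclei of the astrocyte, oligodendrocyte, microglia and endothelial gates, Sst had 201, 224, 181 and 197 UMIs per 1000 nuclei in control 1, BCAS 1, TBI 1 and BCAS+TBI 2 (set 1), and 92.3, 87.4, 214 and 95.8 in control 2, BCAS 2, TBI 2 and BCAS+TBI 1 (set 2). Thus TBI 2 stood with set 1 and the other set 2 libraries were lower. The cortical glutamate gates, which are not known for Sst, had 93.6 Sst UMIs per 1000 nuclei in control 2 and 236 in TBI 2, near the glial values, although their nuclei were deeper (median 7446 against 1702 UMIs). Sst in barcodes of 500 to 1000 UMIs, the emptiest in the files, ranged from 77.5 to 230.2 per 1000. Penk had a median over libraries of 59.5 per 1000 in the glial and endothelial gates and 26.2 in these barcodes, whereas Vip had 52.0 and 65.1. Of these 4565 barcodes, 3614 were also kept as nuclei and 1411 lay in a glial gate, so they were not empty droplets as such.

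As means per nucleus over 8 libraries, each gene stood above its glial rate in its highest gate, which was chosen on these same levels. The factors differed widely and were not corrected for depth (median 1702 UMIs in glia, 5832 in Vip-type and 6484 in Drd2-type nuclei). Vip was 216 times its glial rate in Vip-type nuclei, Crh 98.8 times there and Penk 98.1 times in Drd2-type nuclei. The factor was 44.6 for Sst, 40.5 for Tac1, 30.7 for Pdyn, 24.97 for Npy, 15.7 for Cort, 14.2 for Nts and 7.34 for Cck. In CPM the gap was smaller, with Cck at 176 in Vip-type nuclei against 49.9 in glia and Nts at 14.4 in Drd2-type nuclei against 2.86. In TBI 2, Nts had 0 UMIs in Drd2-type nuclei and 6.73 per 1000 in glia. The glial rate of a gene came to a median of 16.95% (Vip) to 40.9% (Cck) of its mean rate over all nuclei of the library. Among the neuropeptide UMIs of glia, Sst made up 29.7% and Npy 11.6%, close to their 30.4% and 11.1% in whole libraries, while Cck made up 24.1% against 19.4% and Vip 9.85% against 16.8%. In thalamic nuclei Cck made up 60.02%, and its rate in the cortical glutamate gates (670 per 1000 in control 1 and 346 in control 2) stood above the glial rate (170 and 54.2).

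The background was compared between surgeries by permutation over the 8 libraries, which does not hold the library set fixed, and no comparison passed. The 10 genes together had 575 ± 204 UMIs per 1000 glial nuclei in the 4 libraries with TBI and 507 ± 240 in the 4 without (exact permutation test, two-sided, p = 0.914), and the difference was -8.53 within set 1 and 145 within set 2. For BCAS the values were 532 ± 269 with and 550 ± 173 without (exact permutation p = 0.971), with differences of 116 in set 1 and -152 in set 2. In barcodes of 500 to 1000 UMIs the TBI values were 493 ± 176 and 413 ± 189 (exact permutation p = 0.514), with differences of 45.3 in set 1 and 114 in set 2. Within each set both libraries with TBI were above both without, by a narrow margin in set 1 (581 in TBI 1 against 579.97 in BCAS 1), and the difference kept its sign when any 1 library was left out (23.4 to 159). All adjusted values over the 4 tests were 0.971, and the smallest p that this design allows is 0.0286. After adjustment over 4 tests, a single comparison at that smallest p would not have passed either. The lack of a call therefore does not decide whether the background differed between surgeries. TBI 2 carried the difference in set 2: it had 612 UMIs per 1000 glial nuclei, against 292, 315 and 284 in control 2, BCAS 2 and BCAS+TBI 1.

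**Figure D3:**
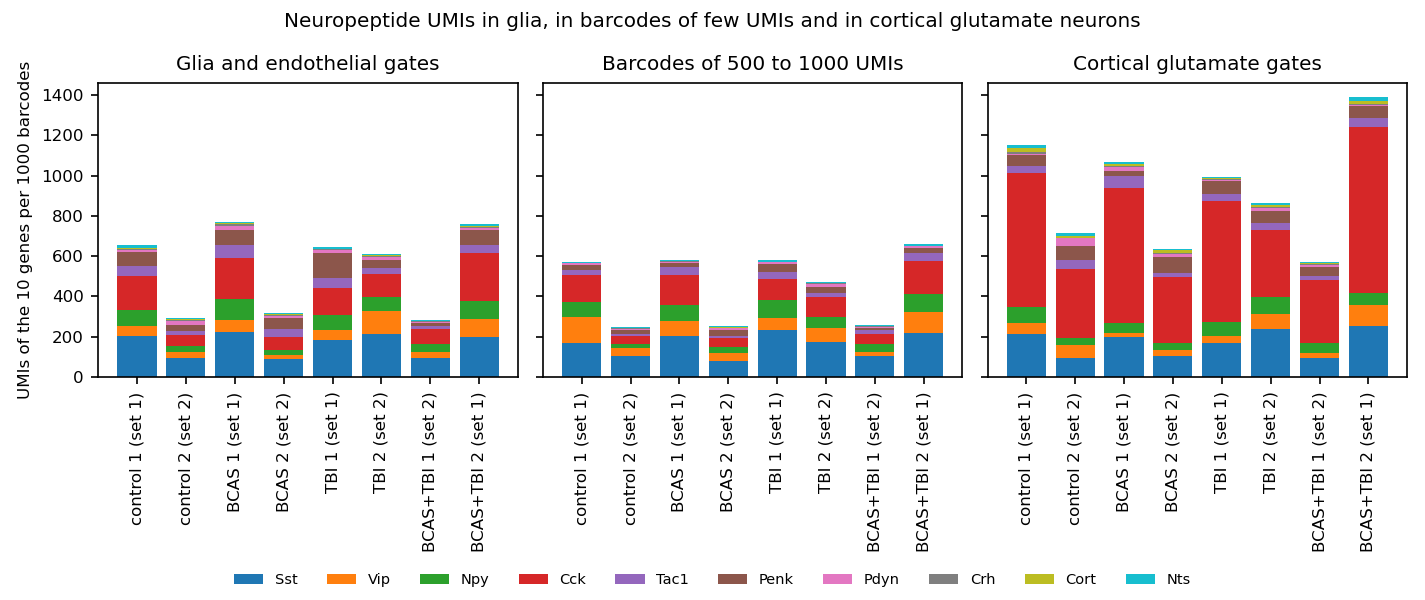
UMIs of the 10 neuropeptide genes per 1000 barcodes (stacked bars, 1 colour per gene) in each of 8 libraries, for glia and endothelial gates, barcodes of 500 to 1000 UMIs and cortical glutamate gates. In each panel the set 1 libraries are the highest and TBI 2 is the highest of set 2, and Cck takes the largest share in the cortical glutamate gates (53.7%).

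The surgeries were then compared within each gate, the question of the study's title being whether hypoperfusion alters the outcome of TBI. Of the 180 possible pairs of a gate and a neuropeptide gene, 83 passed the filter on low counts and were tested. With edgeR's quasi-likelihood test and Benjamini-Hochberg adjustment, 0 of 83 passed for TBI averaged over BCAS (0.00555% of all 162285 pairs passed), for BCAS averaged over TBI (0.00493%), for their interaction (0.016%) and for BCAS+TBI against TBI (0.00678%). DESeq2 also called 0 in each. At an unadjusted p under 0.05, edgeR had 20, 6, 13 and 12 of the 83 (24.1%, 7.23%, 15.7% and 14.5%), against 4.87%, 4.65%, 4.95% and 5.25% of all pairs, and DESeq2 had 9, 4, 4 and 3. For TBI the median log2 fold change of the 83 was 0.25, with 62 above 0, against 0.01 over all pairs; without TBI 2 the median was -0.01. Without TBI 1, 6 pairs passed for TBI, and 3 of them were Sst (0.95), Cck (1.16) and Vip (2.61) in oligodendrocytes, which are not known to make them. For BCAS the median was -0.06, with 35 above 0.

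Cck in Vip-type nuclei came nearest to the threshold. Its level was 127, 187, 333 and 355 CPM in control 1, BCAS 1, TBI 1 and BCAS+TBI 2, and 40.0, 73.0, 149 and 140 CPM in control 2, BCAS 2, TBI 2 and BCAS+TBI 1. Within each set, both libraries with TBI were above both without it. The log2 fold change for TBI was 1.32 (SE 0.22, edgeR adjusted p = 0.0662), on 14, 14, 20 and 31 UMIs in control 1, control 2, BCAS 1 and BCAS 2 and 38, 45, 48 and 28 in TBI 1, TBI 2, BCAS+TBI 1 and BCAS+TBI 2. The share of Vip-type nuclei with at least 2 Cck UMIs was at most 16% without TBI and at least 17.4% with it. In BCAS+TBI 2, 57.1% of the Cck UMIs came from 1 nucleus. The edgeR adjusted p fell to 0.000727 with no filter on low counts, but in 15 of 18 alternatives the pair stayed uncalled. Leaving out each library gave log2 fold changes of 1.19 to 1.40, and the other alternatives gave 0.96 to 1.36. The gate of these nuclei did not use Vip, and 154 of them were Vip-rich while 129 were not. At least 2 Cck UMIs were present in 7.14% of the 154 and in 26.4% of the 129. Whether the Cck difference with TBI lay in the Vip-rich nuclei was not tested. Vip itself stood at 2775, 4515, 2209 and 4196 CPM in control 1, BCAS 1, TBI 1 and BCAS+TBI 2. In control 2, BCAS 2, TBI 2 and BCAS+TBI 1, Vip stood at 1409, 1080, 999.8 and 942 CPM. It was lower with TBI in each of the 4 pairs of libraries within a set, by a fitted log2 fold change of -0.25 (SE 0.19, edgeR adjusted p = 1.00).

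In Sst-type nuclei Sst stood at 1388, 1554, 1200 and 2063 CPM in control 1, BCAS 1, TBI 1 and BCAS+TBI 2, and at 403, 335, 613 and 662 CPM in control 2, BCAS 2, TBI 2 and BCAS+TBI 1. Its log2 fold change for TBI was 0.46 (SE 0.13, edgeR adjusted p = 0.758), with TBI higher in 3 of 4 pairs within a set. Leaving out each library gave 0.21 to 0.68, the highest without TBI 1, with an edgeR adjusted p of 0.00208. The glial Sst rate was also highest in TBI 2 within set 2, and its part in this difference was not tested. The share of Sst-type nuclei with at least 2 Sst UMIs was 52.8%, 52.9%, 45.7% and 56.1% in set 1, in that order of groups. In set 2 it was 45.2%, 38.9%, 42.3% and 36.8%. Of the pairs within a set, only BCAS+TBI 2 against BCAS 1 had the higher share with TBI. A single nucleus held 22.6% of the Sst UMIs in BCAS+TBI 2 and 17.6% in BCAS+TBI 1, against 3.63% to 14.1% in the other libraries. Npy in the same nuclei stood at 286, 236, 490 and 301 CPM in set 1 and at 94.9, 88.2, 99.2 and 157 CPM in set 2, in the same order of groups. Its log2 fold change for TBI was 0.56 (SE 0.15, edgeR adjusted p = 0.679), with TBI higher in 4 of 4 pairs, and leaving out each library gave 0.28 (without TBI 1, adjusted p = 0.718) to 0.75 (without TBI 2, adjusted p = 0.0234). Pdyn, the third peptide of these nuclei, stayed between 63.9 and 81.1 CPM in set 1 and between 41.3 and 45.4 CPM in set 2, with a log2 fold change for TBI of -0.02 (SE 0.12) and for BCAS of 0.05 (SE 0.12).

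Tac1 in Drd1-type nuclei had 197, 119, 222 and 229 CPM in control 1, BCAS 1, TBI 1 and BCAS+TBI 2 and 91.2, 76.7, 111 and 125 CPM in control 2, BCAS 2, TBI 2 and BCAS+TBI 1. TBI was the higher in 4 of 4 pairs within a set, and the log2 fold change of 0.54 (SE 0.16) had an edgeR adjusted p of 0.774. Penk in Drd2-type nuclei had 1501, 596, 828 and 1655 CPM in set 1 and 472, 443, 384 and 380 CPM in set 2, in that order of groups. The Penk libraries of set 1 had no shared direction for TBI, and the log2 fold changes were 0.04 (SE 0.24) for TBI and -0.07 (SE 0.23) for BCAS. The Penk interaction of TBI and BCAS in these nuclei was 1.24 (SE 0.47, unadjusted p = 0.0186, edgeR adjusted p = 0.999).

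Crh in Vip-type nuclei ranged from 35.1 to 216 CPM in set 1 and from 20.5 to 71.4 CPM in set 2, with its extremes in TBI 1 and BCAS+TBI 2 and in BCAS+TBI 1 and control 2. Cort in Pvalb-type nuclei ranged from 4.11 to 16.7 CPM, and Nts in Drd2-type nuclei from 0 UMIs (TBI 2) to 32.6 CPM (control 1), with 0 to 11 UMIs per library. Neither Cort nor Nts passed the filter in its highest gate. Among the other pairs at an unadjusted p under 0.05 were Penk in Sst-type nuclei for BCAS (log2 fold change -0.79, SE 0.24, edgeR adjusted p = 0.877), Vip in Lamp5-type nuclei for TBI (0.95, SE 0.28, adjusted p = 0.855) and Penk in Vip-type nuclei for TBI (-0.89, SE 0.31, adjusted p = 0.911). Leaving out each library moved Penk in Sst-type nuclei from -1.10 to -0.38, with an adjusted p of 0.0386 without TBI 1. It moved Vip in Lamp5-type nuclei from 0.48 (without control 1) to 1.47 (without control 2, adjusted p = 0.000787). With no filter on low counts both passed, at adjusted p-values of 0.0405 for Penk and 3.28e-09 for Vip. In Lamp5-type nuclei Vip had 159, 225, 405 and 457 UMIs in control 1, BCAS 1, TBI 1 and BCAS+TBI 2. In control 2, BCAS 2, TBI 2 and BCAS+TBI 1 it had 215, 199, 201 and 208. A single nucleus held 12.6% (BCAS 2) to 45.9% (control 1) of these UMIs, with 24.4% in TBI 1 and 37.0% in BCAS+TBI 2.

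**Figure D4:**
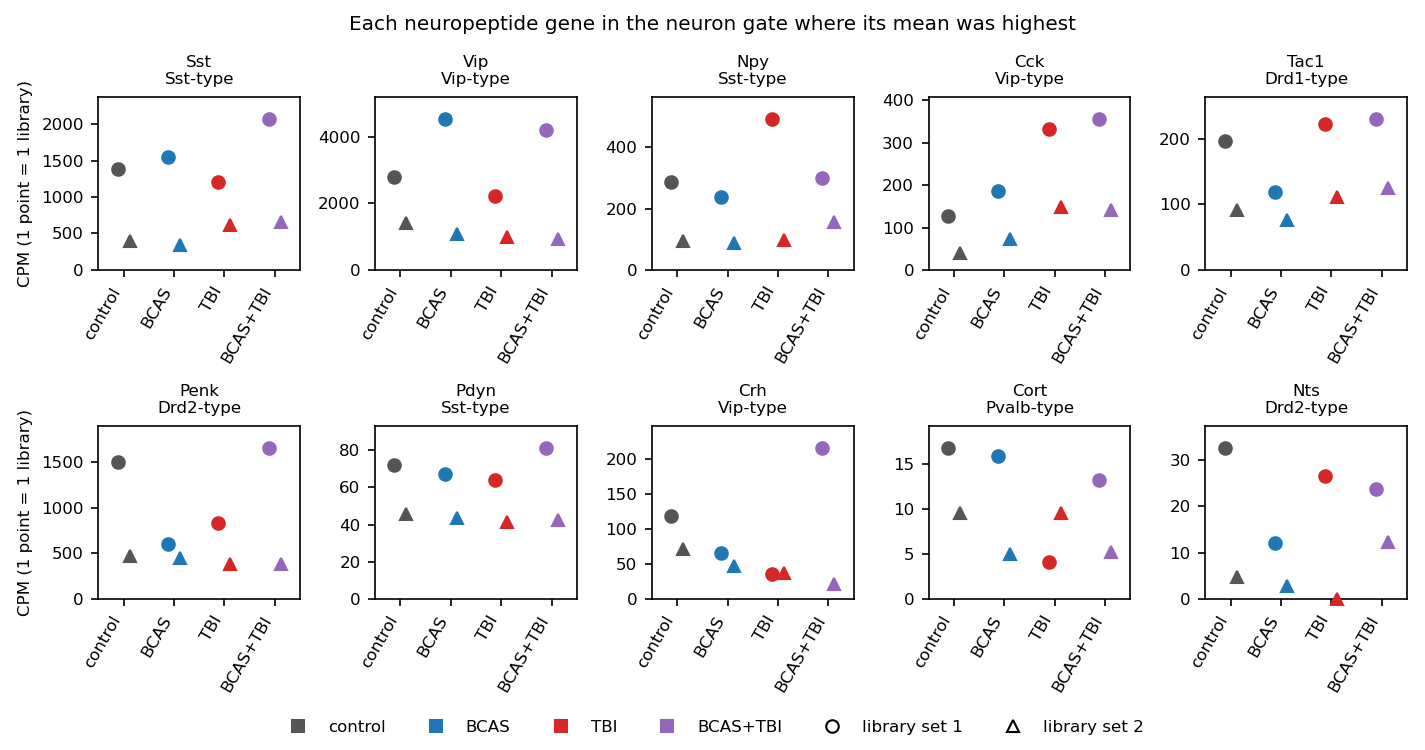
Level of each neuropeptide gene (vertical axes, CPM, each from 0) in the gate where its mean was highest, 1 point per library, by surgery group (horizontal axes and colour) and library set (circles set 1, triangles set 2). For Sst, Vip, Npy, Penk and Pdyn every set 1 library lies above every set 2 library, while the groups overlap.

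Summed over all kept nuclei of a library, the 10 genes gave the same result. With edgeR, 0 of 10 passed in each of the 4 surgery contrasts (0.0% of 23975 genes in each), 0 had an unadjusted p under 0.05 and DESeq2 called 0. The log2 fold changes ran from -0.26 to 0.32 for TBI and from -0.29 to 0.14 for BCAS. In such sums, fewer cells of a type and less RNA per cell cannot be told apart, and the gated share of Sst-type nuclei ran from 2.56% to 4.72%. Without TBI 1, Sst (0.58, edgeR adjusted p = 0.0257) and Cck (0.44, adjusted p = 0.0225) passed for TBI. In barcodes of 500 to 1000 UMIs, 6 of the genes could be tested and 0 passed with edgeR or DESeq2 for TBI (0.0% of 9154 genes), BCAS (0.0109%), the interaction (0.0%) or BCAS+TBI against TBI (0.0%), with 1, 0, 0 and 0 at an unadjusted p under 0.05 in edgeR.

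The genes did differ between the library sets, which the labels do not name. With edgeR, 57 of the 83 pairs passed for set 2 against set 1, all 57 lower in set 2, whereas 25.7% of all pairs passed and 15% were lower. The median log2 fold change was -1.19, against -0.0019 over all pairs. Cck passed in all 18 gates tested (median -1.58), Sst in 11 of 15, Npy in 8 of 11, Tac1 in 7 of 8 and Penk in 5 of 10. Gates that did not pass were also below 0 for Sst, Npy and Tac1, while Penk was above 0 in 2 of its 10. In the gates that make them, the log2 fold changes were -1.58 (SE 0.20) for Vip, -1.56 (SE 0.14) for Sst, -1.48 (SE 0.15) for Npy, -1.33 (SE 0.22) for Cck, -1.32 (SE 0.24) for Penk, -0.89 (SE 0.16) for Tac1 and -0.61 (SE 0.13) for Pdyn. Crh passed in Vip-type nuclei at -1.19 (SE 0.41, edgeR adjusted p = 0.0375), but lost the call in 7 of 14 alternatives (-0.36, adjusted p = 0.575 without BCAS+TBI 2). Cort passed in 0 of 2 gates with edgeR.

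In barcodes of 500 to 1000 UMIs, 5 of 6 genes passed as lower in set 2 (22.8% of all genes passed and 13.8% were lower), and in whole libraries 7 of 10 (58.0% and 31.1%). The 3 that did not pass in whole libraries were Pdyn (-0.18, SE 0.10), Crh (-0.40, SE 0.20) and Cort (-0.11, SE 0.20). Gene length moved with this difference. In Sst-type nuclei the 4445 genes spanning at most 15000 bp, a limit chosen above the longest of the 10, had a median of -0.46 and 33.0% passed as lower, while the 8908 longer genes had a median of 0.11 and 10.1% did. The 10 neuropeptide genes had a median of -1.001 there. In layer 6 cortical nuclei the 6 tested had -0.47, near the -0.44 of all genes of at most 15000 bp. In oligodendrocytes the 8 tested had -1.41 against -0.46, and in whole libraries the 10 had -1.07 against -0.42. The parts of span, depth and mitochondrial share in the difference were not tested.

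**Figure D5:**
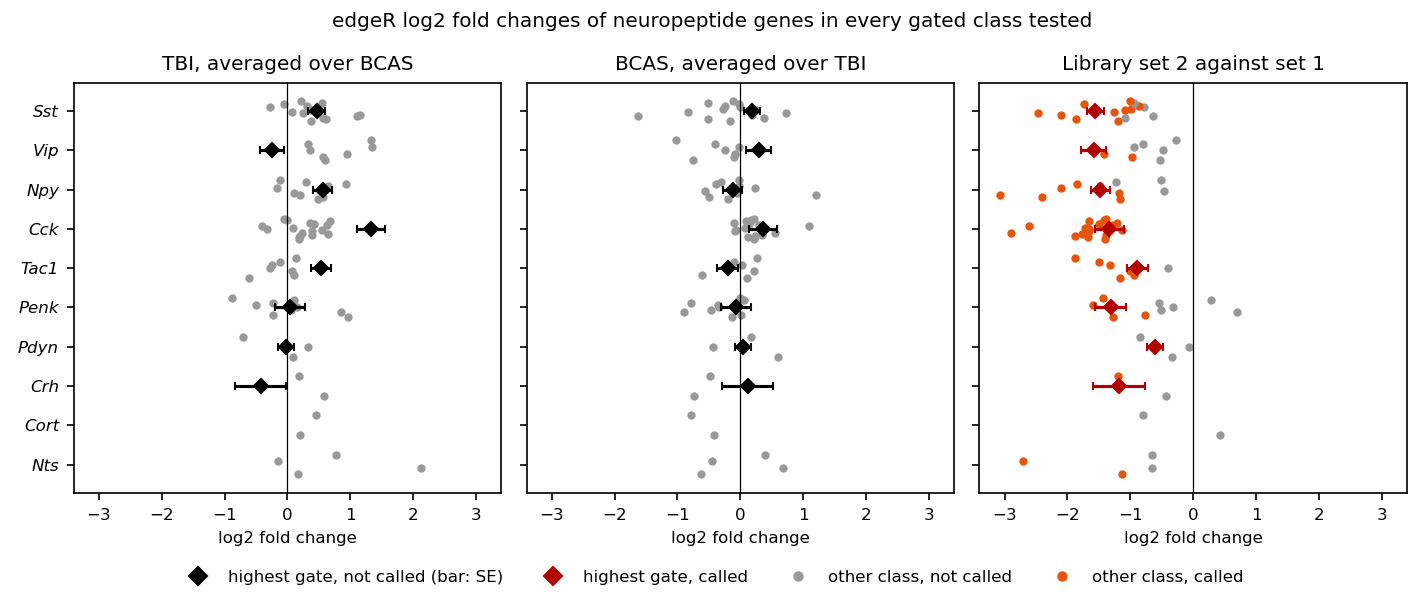
edgeR log2 fold changes (horizontal axes) of each neuropeptide gene in every gate tested, for TBI, BCAS and library set 2 against set 1. Diamonds are the gate of highest mean with bars of 1 SE, circles are other gates, and red or orange marks an adjusted p under 0.05. The 57 marked pairs all lie left of 0 in the third panel, and the first and second panels hold none.

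Genes that make, store and sense these peptides were read in the same fits. Of 16 genes of peptide processing and dense-core vesicles, tested in 222 pairs over the neuron gates, 0 passed with edgeR in any of the 4 contrasts. Cadps2, a vesicle priming factor, was nearest for TBI in Vip-type nuclei (log2 fold change 1.30, SE 0.27, adjusted p = 0.228), followed by the secreted peptide precursor Vgf in Sst-type nuclei (0.37, adjusted p = 0.725). For BCAS the nearest were the convertase Pcsk1 in upper-layer nuclei (0.65, adjusted p = 0.621) and the granin Scg2 in thalamic nuclei (0.58, adjusted p = 0.708). For the library set, 117 of the 222 pairs passed (52.7%, against 25.8% of all pairs of the neuron gates), 35 higher and 82 lower in set 2. By p-value these were led by Chgb (-1.04), Pcsk1n (-1.04) and Scg2 (-1.09) in layer 6 nuclei, Scg5 in Pvalb-type nuclei (-0.95) and Ptprn2, which went up, in layer 6 nuclei (0.55).

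Of 22 receptors and binding proteins, 20 were tested in 120 pairs and 0 passed with edgeR in the surgery contrasts. The nearest for TBI were the neurotensin receptor Ntsr2 in Drd1-type nuclei (-1.001, adjusted p = 0.960) and the somatostatin receptor Sstr2 in Baiap3 and Resp18 neurons (0.76, adjusted p = 0.972). For BCAS they were the receptor Npy5r in dentate granule cells (-1.11, adjusted p = 1.00) and the neurotensin-binding sortilin, Sort1, in Baiap3 and Resp18 neurons (0.31, adjusted p = 1.00). For the library set 18 passed, 7 higher and 11 lower, led by Crhbp in Sst-type (-1.14), Oprm1 in layer 6 (-0.71), Vipr2 in thalamic (0.68), Ntsr2 in layer 6 (-0.91) and Npy5r in layer 6 nuclei (-0.998). Several receptors had their highest level in a gate other than that of their peptide: Vipr2, a Vip receptor, in thalamic nuclei (99.0 CPM), Crhr1, the Crh receptor, in mid-layer cortical nuclei (73.6 CPM) and Oprd1, an enkephalin receptor, in Pvalb-type nuclei (84.2 CPM).

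Of 27 other neuropeptide genes, 15 were tested in 50 pairs, and 1 pair passed with edgeR in a surgery contrast. Pmch, the precursor of melanin-concentrating hormone, had an interaction log2 fold change of 4.29 in Sst-type nuclei (SE 0.47, adjusted p = 0.00542). The set 2 libraries held nearly all of its UMIs there, with 109 for control 2, 23 for BCAS 2, 66 for TBI 2 and 206 for BCAS+TBI 1, while the set 1 libraries had 1 to 5. They came from few nuclei: 1 nucleus held 105 of the 109 in control 2 and 58 of the 66 in TBI 2, and 2 nuclei had 5 or more in BCAS+TBI 1. For the library set 26 of the 50 pairs passed (52.0%, against 25.8% of all pairs of the neuron gates), 25 of them lower in set 2. The 26 were led by Pmch in Sst-type nuclei (3.87, the 1 higher), Cartpt in upper-layer (-3.03), Tac2 in Sst-type (-2.31), Agrp in layer 6 (-0.82) and Grp in upper-layer nuclei (-2.43). Over all 129385 pairs of the neuron gates, 9 passed for TBI, 8 for BCAS, 24 for the interaction, 11 for BCAS+TBI against TBI and 33374 for the library set.

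For each neuropeptide gene, the genes most alike across the 14 neuron types were picked as the highest correlations, so these are high by choice. The measure was Pearson's r of log2(CPM + 10) averaged over the 8 libraries, among 5367 genes with at least 50 CPM in 1 type, and it describes 14 points that share the same libraries. Nearest to Sst were Crhbp (r = 0.96) and Lhx6 (0.88), both used in gates, and Rab3b (0.86). Nearest to Vip were Tac2 (0.97), Cxcl14 (0.97) and Frem1 (0.97), and nearest to Crh were Wnt5a (0.98), Tac2 (0.96) and Frem1 (0.96). Npy was followed by Hapln1 (0.93) and Otx2os1 (0.88), and Penk by Drd2 (0.86), a gate marker, Frem2 (0.85) and Stk32a (0.85). Cort was followed by 6330576A10Rik (0.96), Gpr176 (0.95) and A530058N18Rik (0.95), and Nts by Gprin3 (0.87), Pbx3 (0.84) and Gm44593 (0.83). The highest mean levels of Cort and Nts, 9.89 and 14.4 CPM, lay near the 10 CPM added before the logarithm. The values of r were lower for Tac1, with Slc25a13 (0.82), Brd8 (0.82) and Mkrn1 (0.80), for Cck, with Sobp (0.78) and Jakmip2 (0.77), and for Pdyn, with Cdc123 (0.77), Cdh13 (0.77) and Ldah (0.73).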

How the data were processed

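Each library was deposited as raw UMI counts per gene and barcode, whole numbers without normalization by the authors, and per the file headers Cell Ranger 7.0.0 produced them. The submitters' processing notes name GRCm38, mm10 and Seurat. Of 53390 barcodes, 4922 failed limits of 500 UMIs, 300 genes or a mitochondrial share of 5%, and the 6% with the highest Scrublet score per library (scanpy 1.11.5; 2908 in all) were removed as doublets. Nuclei were gated by UMIs of fixed markers that exclude every neuropeptide gene: 11532 nuclei fell in the 14 neuron gates, 9556 were other neurons and 16301 had no gate. The members and lists were chosen with earlier results of these data known.

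Counts were summed per library and gate (more than 14 nuclei in each library) and tested with edgeR 4.0.16 in R 4.3.3 (TMM, filterByExpr with minimum count 10, quasi-likelihood, two-sided) with terms for group and library set. p-values were adjusted by Benjamini and Hochberg over all pairs of a gate and a gene, barcodes of 500 to 1000 UMIs included, and separately for whole libraries, at 0.05. The library set contrast itself was added after the design. On simulated data for TBI averaged over BCAS in Sst-type nuclei, 81.25% of 96 genes changed 2-fold were recovered. Of 95 genes changed 4-fold there, 97.9% were recovered, with 21 false calls among 12945 unchanged genes. In simulated whole libraries, 71% of 100 genes changed 2-fold were recovered. Small gates such as Vip-type nuclei were not simulated, so these rates do not tell what could be found in them. Counts give the depth, and intervals from sampling noise cover counting error only. Alternatives were DESeq2 1.42.0, RLE normalization, other filters on counts and barcodes, doublets kept, stricter gates, thinning, no library set term, a replicate block and leaving out each library. All 10 genes are named, in the neuron gate of highest mean CPM and wherever they pass. From each list up to 5 genes that pass are named by p-value, or where none pass the 2 with the smallest p for TBI and for BCAS, and for each of the 10 the 3 genes most alike over neuron gates, of which 2 are not reported here. Other pairs at an unadjusted p under 0.05, the receptor levels and the gene span limit were chosen after values were seen. Positions come from GENCODE vM21, matched by Ensembl ID for 54079 of 54232 genes.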

Additional observations from a re-analysis of the deposited data

Results flagged for a closer look

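For 2 genes the difference with TBI pointed apart without and with BCAS. Pmch in Sst-type nuclei had an interaction log2 fold change of 4.29 by edgeR's test of the difference itself, on counts held mostly by 1 or 2 nuclei in each set 2 library, and the call was lost in 8 of 18 alternatives. Nts in Drd2-type nuclei was lower with TBI in both library sets without BCAS (mean log2 difference -0.38, on log2(CPM + 10)) and higher in both with BCAS (0.71). That difference was not tested, because Nts did not pass the filter on low counts there: set 1 had 5 UMIs for control 1, 5 for BCAS 1, 11 for TBI 1 and 3 for BCAS+TBI 2, and set 2 had 2 for control 2, 2 for BCAS 2, 0 for TBI 2 and 4 for BCAS+TBI 1.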

How the results depend on the processing

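The number of pairs of a gate and a neuropeptide gene that could be tested was 83 in the main fit. It was 43 at a minimum count of 30, 63 with thinning, 81 with stricter gates, 88 with doublets kept and 176 with no filter on low counts. With 1 library left out it was 92 to 102. In every surgery contrast 0 pairs were called with no library set term, the other normalization, a minimum count of 30 or DESeq2. The same held for at least 1000 UMIs, doublets kept, stricter gates and thinning. With no filter on low counts 7 pairs were called for TBI, 1 for BCAS, 2 for the interaction and 2 for BCAS+TBI against TBI. Leaving out each library gave 0 to 6 for TBI, 0 to 2 for BCAS, 0 to 1 for the interaction and 0 to 7 for BCAS+TBI against TBI, the highest for TBI, BCAS and BCAS+TBI against TBI all without TBI 1. Whole libraries gave 0 to 2 (2 without TBI 1), and barcodes of 500 to 1000 UMIs gave 0 throughout. The processing list gave 7 calls with no filter and 0 to 5 without 1 library, the receptors 2 and 0 to 5. The other neuropeptides, with 1 call, gave 20 with no filter, 0 with no library set term, 0 with DESeq2 and 0 to 13 without 1 library. The Pmch interaction lost its call under 8 alternatives. The library set counts of 57 and 7 stayed within 1.5 times, at 38 to 68 and at 7.

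Replicate numbers do not pair the libraries: deviations from group means correlated at 0.76 to 0.88 between control, BCAS and TBI but at -0.83 to -0.91 with BCAS+TBI. With the replicate block, 0 neuropeptide pairs were called in each surgery contrast, 0 in whole libraries and 0 of the other neuropeptides. Depth limits Cort, Crh and Nts, with 610 to 1090 UMIs in all nuclei.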
